A study of Mus musculus with 6 samples.

Results

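The cells described here are the non-acinar epithelial cells of the mouse submandibular gland, compared between irradiated and untreated glands. They were chosen by count: a barcode needed at least 500 detected genes, at most 20% mitochondrial UMIs (unique molecular identifiers, each counting 1 captured RNA molecule), a call to exactly 1 mouse by its antibody hashtag, and under 5% of its gene UMIs from 7 secretory genes of acinar cells (Mucl2, Pip, Prol1, Scgb1b27, Scgb2b27, Smgc and Car6). This left 3947 cells of the 16640 deposited barcodes, 1808 from untreated and 2139 from irradiated glands. The 7 genes chose the cells, so their levels are given as a description and are not tested. The limit lay in a sparse range: 51 untreated and 2 irradiated cells held 4 to 5% of these genes, and 38 and 1 held 5 to 6%. Below the limit the groups differed: 832 of the 1808 untreated and 2118 of the 2139 irradiated cells held under 1%. The median share kept was 1.05% in untreated and 0.0163% in irradiated cells. The highest share kept was 4.94% in untreated and 4.77% in irradiated cells, and the lowest left out was 5.06% and 5.74%. Of the singlets, 357 of 2165 untreated and 14 of 2153 irradiated cells were set aside as acinar.

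Both groups were female C57BL/6J mice, an inbred laboratory strain, with no transgene in the labels. The irradiated glands were taken 90 days after a stereotactic dose of 30 Gy to the left submandibular gland, and the controls were untreated. Epcam-positive cells (whole epithelium) were sorted without dead cells and without cells carrying Cd3, Cd16/32, Cd31 or Cd45, and measured with 10x Genomics 3′ version 3 libraries. Each group was 1 library of 3 pooled mice, told apart by hashtags (n = 3 mice per group throughout). Ages are labelled as 8 to 10 weeks in both groups, without saying whether at the dose or at collection, so irradiation, library and any age difference cannot be told apart.

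Acinar cells of this gland secrete the saliva proteins, and the ducts modify the fluid. In rodents the granular ducts also store growth factors and kallikreins, and ionocytes are rare ion-transporting duct cells. Ligands are the proteins by which cells signal to each other, receptors receive them, transcription factors set which genes are read, and metabolic enzymes and carriers supply energy, building blocks and protection against oxidation. Radiation of the salivary glands is known for the lasting loss of acinar cells, which is why the other cells are described apart from it.

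Counts were summed per mouse over 360 to 1303 irradiated and 573 to 624 untreated cells, which gave 7581785 to 29217703 and 7779101 to 8981067 UMIs. The irradiated cells were deeper, with median UMIs per cell of 19687 to 20675 against 12064 to 12175.5, and the mitochondrial share was 4.36% ± 0.389 (SD) against 10.1% ± 0.479. Of the barcodes that passed the cell filter, 43.4% of untreated and 11.2% of irradiated ones had no hashtag call and were left out. The 2 libraries shared 8 barcodes, of which 1 untreated and 7 irradiated cells were kept. Levels are CPM, UMI counts scaled to a common library size (the usual CPM) with edgeR's TMM factors. The 7 acinar genes summed to 10227 ± 277 CPM in untreated and 830 ± 298 CPM in irradiated mice, so RNA of acinar cells was still more abundant in the untreated sums. The wider list of 14 acinar markers summed to 9944 to 18335 CPM against 1119 to 1249 CPM, with all irradiated mice below all untreated mice for 9 of the 14, and with the top of the range from Dcpp1, Dcpp2 and Dcpp3 in untreated mouse 3 (1587, 2402 and 3863 CPM). Luminal duct markers summed to 4567 to 5802 CPM in untreated and 10397 to 11437 CPM in irradiated mice (4 of 7 tested higher), granular duct markers to 139093 to 177502 and 180990 to 233814 CPM (7 of 14 higher), and striated duct markers to 6312 to 7328 and 4014 to 5312 CPM (5 of 7 lower). Most of the luminal sum was Krt8 and Cldn4, with Cldn4 at 1313 to 1806 CPM in untreated and 5233 to 5462 CPM in irradiated mice. All irradiated mice were above all untreated mice for 5 luminal markers and below them for 2, Duox2 and Duoxa2. Duox2 was at 22.1, 28.3 and 24.6 CPM in untreated and 18.5, 13.2 and 3.39 CPM in irradiated mice. The part of these duct markers in the differences between the groups was not tested beyond the alternatives given. Epcam, the surface protein of the sort, was at 1382 ± 43.4 and 2242 ± 134 CPM. Of 18 clusters, clusters 5, 6 and 7 were almost wholly untreated (265, 195 and 185 cells against 7, 4 and 2) and had raised markers of acinar or intercalated duct cells. Cluster 17 was endothelial-like (19 untreated cells and 1 irradiated cell). In sums over mixed cells, fewer cells of a type and less RNA per cell cannot be told apart.

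Over all 11578 genes tested with edgeR's quasi-likelihood test, 2282 (19.7%) were higher and 2075 (17.9%) lower in irradiated cells at a Benjamini-Hochberg adjusted p of 0.05. Here and for single genes, rose and fell mean past this threshold, and ± after a level is the SD over 3 mice. The called genes were 37.6% of those tested, the values of the 3 and 3 mice did not overlap for 51.2%, 30.3% were both called and without overlap at a mean of at least 5 CPM (the terms for the leading genes), and the median log2 fold change was -0.0235. These shares are the background for the counts of members given for each gene list. Without clusters 5, 6 and 7, an alternative chosen after seeing the data, 2161 were higher and 1830 lower, and 98.6% of the genes called in the full set and still tested kept their direction.

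The promoters of 4 genes are shown as the sequence that lies before members with large changes of level in both cell classes or, for Fos, in all non-acinar cells: Tnfrsf1b, the leading receptor, Srxn1, an antioxidant enzyme, and Fos and Klf2, which were lower. Each is the 250 bases before the RefSeq start on build GRCm38.p6, 5′ to 3′ on the gene's strand: chr4:145246871-145247120 (minus) for Tnfrsf1b, chr2:152105274-152105523 (plus) for Srxn1, chr12:85473640-85473889 (plus) for Fos and chr8:72318812-72319061 (plus) for Klf2. Capitals mark matches on either strand to TGANTCA (AP-1), TGACG (the core of the cyclic AMP response element), TGANNNNGC (the core of the antioxidant response element) and, for MEF2, CTA and TAG with 4 bases of any kind between them. These motifs were chosen after the sequences were seen.
Tnfrsf1b: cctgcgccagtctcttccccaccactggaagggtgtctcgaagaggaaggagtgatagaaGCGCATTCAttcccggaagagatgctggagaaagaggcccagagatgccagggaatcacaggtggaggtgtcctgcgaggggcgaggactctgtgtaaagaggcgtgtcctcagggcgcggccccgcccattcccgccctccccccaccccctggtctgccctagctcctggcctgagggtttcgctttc
Srxn1: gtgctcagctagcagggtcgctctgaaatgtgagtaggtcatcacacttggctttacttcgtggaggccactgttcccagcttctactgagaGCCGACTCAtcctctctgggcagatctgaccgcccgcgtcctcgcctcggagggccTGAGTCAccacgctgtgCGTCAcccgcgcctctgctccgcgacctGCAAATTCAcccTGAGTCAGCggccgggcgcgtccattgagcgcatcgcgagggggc
Fos: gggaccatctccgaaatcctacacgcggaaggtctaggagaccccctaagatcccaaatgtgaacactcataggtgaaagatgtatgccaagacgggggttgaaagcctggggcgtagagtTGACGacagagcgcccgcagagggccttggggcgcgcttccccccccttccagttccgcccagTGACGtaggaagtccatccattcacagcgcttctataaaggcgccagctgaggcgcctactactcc
Klf2: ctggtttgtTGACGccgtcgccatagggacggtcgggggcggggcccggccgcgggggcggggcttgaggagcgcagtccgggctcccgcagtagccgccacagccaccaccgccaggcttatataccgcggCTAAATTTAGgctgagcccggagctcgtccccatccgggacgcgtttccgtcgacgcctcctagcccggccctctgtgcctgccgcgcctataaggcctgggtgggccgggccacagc
The Srxn1 window held 2 AP-1 matches, 1 cyclic AMP response core and 3 antioxidant response cores, 1 of which overlaps an AP-1 match. The Fos window held 2 cyclic AMP response cores, the Klf2 window 1 and 1 MEF2 match, and the Tnfrsf1b window 1 antioxidant response core. Of 32851 windows of the same length, 6.75% hold the AP-1 letters, 17.8% the cyclic AMP response core, 35.2% the antioxidant response core and 3.2% the MEF2 letters. A match is a description of the letters and not a bound site.

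Among ligands, Calcb, Il1rn, Lif and Pdgfb led the genes that were higher in irradiated cells, and Ptn, Tslp, Nrtn and Ccl28 those that were lower. Of 267 listed ligand genes 120 passed the filter on low counts, and of these 36 rose and 24 fell, against the background of 19.7% and 17.9%. Their median log2 fold change was 0.09. In the group of VEGF, PDGF and colony-stimulating factors 7 of 12 tested members rose and 2 fell, in the TGF-beta and BMP family 6 of 12 rose and 2 fell, and in the EGF family 3 of 7 rose and 0 fell. None of the 4 tested Wnt and R-spondin members passed the test.

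Calcb encodes beta calcitonin gene-related peptide, a vasoactive neuropeptide. It had 1 UMI in all untreated mice together, in mouse 3, and 92, 57.4 and 45 CPM in the irradiated mice (adjusted p = 1.61e-05). The pooled counts differed 1577.5-fold (counting interval 283 to 62330), and every irradiated mouse was far above every untreated one. Calcb was the leading gene of cluster 9, which held 138 irradiated and 0 untreated cells. Il1rn, the interleukin 1 receptor antagonist, was at 1.01, 0.109 and 0.37 CPM in the untreated and 31, 16.1 and 11.9 CPM in the irradiated mice, with no overlap. Its log2 fold change was 5.24 ± 0.58 (SE, adjusted p = 2.47e-04), and without untreated mouse 1, the highest of its group, it was 6.31.

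Lif, a cytokine of the interleukin 6 family, stood at 1.23, 0.652 and 0.863 CPM in the untreated and 18.3, 24 and 8.53 CPM in the irradiated mice. It rose by 4.23 ± 0.48 on the log2 scale (adjusted p = 2.79e-04), and irradiated mouse 3 was the lowest of its group while still above all untreated mice. Pdgfb, the B chain of platelet-derived growth factor, had 0.448, 0.544 and 1.6 CPM in untreated and 17.3, 12.4 and 12.8 CPM in irradiated mice. The groups did not overlap, with a log2 fold change of 4.03 ± 0.34 (adjusted p = 6.92e-05), and of 4.79 without untreated mouse 3, the highest of its group. Over all alternative settings the log2 fold change was 3.28 to 5.91 for Lif, 2.85 to 5.01 for Pdgfb and 4.42 to 6.85 for Il1rn.

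Ptn encodes pleiotrophin, a heparin-binding growth factor. Its level was 43.2, 46.3 and 66.2 CPM in untreated mice and 21.8, 5.63 and 3.88 CPM in irradiated mice, a log2 fold change of -2.48 ± 0.51 (adjusted p = 0.00561). The groups did not overlap, and irradiated mouse 1 was well above the other irradiated mice. Without it the value was -3.37. Ptn was among the leading genes of cluster 14 (65 untreated and 17 irradiated cells), which stayed unnamed, since basal duct markers (Krt14, Krt5 and Krt17) were among its leading genes beside Mgp and Dcn. Basal duct markers summed to 182 to 324 CPM in untreated and 214 to 253 CPM in irradiated mice, and fibroblast markers to 77.5 to 414 and 47.4 to 138 CPM. Without clusters 14, 16 and 17, an alternative added after seeing the data, the log2 fold change of Ptn was -2.04 (adjusted p = 0.0376).

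Nrtn, neurturin, a ligand that keeps parasympathetic neurons alive, was at 47.1, 36.6 and 50.9 CPM in untreated mice. In irradiated mice it was at 15.9, 16.6 and 17.1 CPM, below every untreated mouse, with a log2 fold change of -1.44 ± 0.13 (adjusted p = 8.71e-05) and of -0.76 without clusters 5, 6 and 7. Tslp, an epithelial cytokine that acts on dendritic cells, had 7.29, 6.85 and 9.86 CPM in untreated and 2.47, 2.58 and 2.52 CPM in irradiated mice (log2 fold change -1.65 ± 0.20, adjusted p = 3.66e-04). Without clusters 5, 6 and 7 its direction turned, to 0.35 (adjusted p = 0.381). Ccl28, a chemokine of mucosal glands, was at 5.05, 7.61 and 8.26 CPM in untreated and 2.2, 2.51 and 4.75 CPM in irradiated mice (log2 fold change -1.16 ± 0.31, adjusted p = 0.0177), without overlap. Its call was lost without irradiated mouse 2 (-0.95, adjusted p = 0.0888), untreated mouse 2 (-1.09, 0.054) or untreated mouse 3 (-1.02, 0.0705).

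Among other growth factors, the EGF receptor ligand Areg went from 5.57 ± 6.19 to 85.8 ± 86.6 CPM. All irradiated mice were above all untreated mice, but irradiated mouse 1 was far above the rest of its group: the log2 fold change was 3.87 ± 0.88 (adjusted p = 0.00899), 2.69 without that mouse and 5.38 without untreated mouse 2. Nrg1, neuregulin 1, had 2 UMIs in the untreated mice, both in mouse 3, and 186 in the irradiated mice, a pooled ratio of 53.2 (counting interval 14.5 to 443). Hbegf, another ligand of the EGF receptor, rose from 151 ± 26.7 to 209.8 ± 11.5 CPM, and Egf, the growth factor stored by granular ducts, was at 266 ± 136 and 301 ± 123 CPM and missed the threshold (adjusted p = 0.735). Kitl, the ligand of Kit, rose from 8.44 ± 1.89 to 34.4 ± 9.03 CPM, and Csf1, which maintains macrophages, from 24.1 ± 3.02 to 67 ± 18.2 CPM. Jag1, a Notch ligand and the only tested member of the Notch and hedgehog ligands, rose from 2.53 ± 0.828 to 10.6 ± 3.63 CPM.

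In the TGF-beta family Bmp2 rose from 0.225 ± 0.101 to 2.04 ± 0.628 CPM, Gdf15, a stress-induced cytokine, from 19 ± 10.7 to 69.97 ± 13.9 CPM, and Inhba, the activin A subunit, from 2.12 ± 1.0 to 6.47 ± 1.35 CPM. All 3 tested FGF members passed the test: Fgf1, which binds all FGF receptors, rose from 28.4 ± 1.69 to 49.7 ± 6.95 CPM, while Fgf9 fell from 9.55 ± 1.1 to 5.46 ± 0.891 CPM and Fgf10, a factor of gland branching, from 23.9 ± 4.16 to 11.5 ± 3.93 CPM. Gas6, a ligand of the Axl receptor family, rose from 128 ± 5.83 to 185 ± 9.75 CPM. In these genes the mice of the groups did not overlap.

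Of the chemokines 5 of 18 tested rose and 2 fell. Cxcl5 and Cxcl2, which attract neutrophils, rose from 0.269 ± 0.281 to 6.06 ± 2.99 CPM and from 12.8 ± 7.51 to 94.9 ± 65.2 CPM. Without irradiated mouse 2, its highest, the log2 fold change of Cxcl2 was 2.18 in place of 2.93, and that of Cxcl5 was 5.56 without untreated mouse 1 and 3.80 without untreated mouse 2, in place of 4.41. Cxcl14 had 0.561, 57.1 and 16 CPM in untreated and 1.51, 0.319 and 0 CPM in irradiated mice, and the groups overlapped. Its log2 fold change of -5.75 ± 1.42 (adjusted p = 0.013) was -4.12 without untreated mouse 2 and -6.68 without irradiated mouse 1, and the call was lost without irradiated mouse 2 (-5.24, adjusted p = 0.071). Il23a, a subunit of interleukin 23, rose from 0.273 ± 0.239 to 2.75 ± 1.57 CPM, with log2 fold changes of 3.26, 3.86 without untreated mouse 1 and 2.66 without untreated mouse 2. Il15, a cytokine of natural killer cells and memory T cells, fell from 20.5 ± 4.8 to 10.2 ± 0.647 CPM.

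Under a stricter cell filter (1000 genes or more, mitochondrial UMIs up to 10%) the calls of Hbegf, Inhba and Fgf9 were lost (adjusted p = 0.519, 0.186 and 0.0681) and Fgf10 turned to 0.15 (adjusted p = 0.701). With mice assigned by hashtag share, Hbegf, Inhba, Fgf9 and Cxcl2 lost theirs (adjusted p = 0.153, 0.0689, 0.0907 and 0.897), and with cells thinned to 2000 UMIs Hbegf (0.0548) and Il15 (0.109). The size also varied, and over all alternatives the log2 fold change was 1.21 to 2.32 for Kitl, 1.28 to 2.81 for Gdf15 and 0.26 to 5.58 for Cxcl2. For Bmp2 it was 2.50 to 4.07 over the 16 of 21 alternatives that tested it.

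Among receptors, the TNF and death receptor group had the largest share of higher members of the groups with at least 7 tested. Of 356 listed receptor genes 179 passed the filter, of which 58 rose and 51 fell, with a median log2 fold change of -0.0277. In the TNF and death receptor group 12 of 14 tested members rose and 1 fell (median 1.28). In the pattern recognition group 5 of 8 rose and 0 fell, and of the cytokine and interferon receptors 11 of 27 rose and 3 fell. The counts ran the other way for Wnt, Notch and hedgehog receptors (2 of 22 rose and 10 fell), TGF-beta and BMP receptors (2 of 13 rose and 6 fell) and G protein-coupled receptors (8 of 35 rose and 16 fell).

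Tnfrsf1b, the second TNF receptor, was at 0.673, 0.761 and 0.739 CPM in the untreated mice and 20.7, 20.9 and 19.7 CPM in the irradiated mice. The mice of each group were close together and the groups far apart, a 27.9-fold difference (log2 4.80 ± 0.16, adjusted p = 1.24e-06). Tnfrsf11b, osteoprotegerin, a secreted decoy receptor for the RANK ligand, had 5.83, 5.54 and 4.44 CPM in untreated and 78.2, 66.8 and 51.9 CPM in irradiated mice. It rose 12.4-fold (log2 3.63 ± 0.18, adjusted p = 9.49e-06) with no overlap, and it was among the leading genes of cluster 4, which held 369 irradiated and 0 untreated cells.

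Eda2r, the receptor of ectodysplasin A2 and a p53 target, rose from 4.88 ± 0.866 to 23.4 ± 2.63 CPM. Fas, the receptor of Fas ligand that can start apoptosis, rose from 14.5 ± 1.62 to 59.9 ± 4.65 CPM, and Tnfrsf10b, the TRAIL receptor, from 1.23 ± 0.911 to 4.34 ± 0.641 CPM. The value of Tnfrsf10b was 1.77, and 2.58 without untreated mouse 2, and its call was lost with mice by hashtag share (adjusted p = 0.0695) and the stricter cell filter (0.0854). Tnfrsf11a, the RANK receptor, was at 2.79 ± 0.712 and 3.25 ± 0.64 CPM and missed the threshold (adjusted p = 0.555). In the pattern recognition group Tlr2, which senses bacterial lipoproteins, rose from 2.24 ± 0.695 to 9.21 ± 0.634 CPM, and Ly96 and Cd14, partners of Tlr4 in the response to endotoxin, rose from 19 ± 1.74 to 71.7 ± 26 CPM and from 54.1 ± 7.44 to 137 ± 13.8 CPM. Tlr4 itself was at 3.49 ± 0.811 and 4.31 ± 0.64 CPM and missed the threshold (log2 0.31, adjusted p = 0.318). Osmr, the oncostatin M receptor, rose from 5.3 ± 1.69 to 23.6 ± 3.6 CPM, and Ifngr2, a chain of the interferon gamma receptor, from 22 ± 3.12 to 61.4 ± 3.65 CPM.

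Adgrf1, an adhesion G protein-coupled receptor, was at 1.68, 1.2 and 0.37 CPM in untreated and 8.78, 12.1 and 12.8 CPM in irradiated mice (log2 3.35 ± 0.33, adjusted p = 1.46e-04), with no overlap. Htr1d, a serotonin receptor, had 1.46, 1.52 and 5.18 CPM in untreated and 30.6, 11.3 and 10.8 CPM in irradiated mice. Irradiated mouse 1 was the highest. The log2 fold change was 2.66 ± 0.56 (adjusted p = 0.00681), 2.06 without that mouse and 3.48 without untreated mouse 3, and under the stricter cell filter the call was lost (adjusted p = 0.0557). Adra1b, an alpha 1 adrenergic receptor, rose from 1.58 ± 0.826 to 6.61 ± 1.53 CPM.

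Adrb1, the beta 1 adrenergic receptor through which sympathetic nerves drive protein secretion, was at 22.3, 31.9 and 35.2 CPM in untreated and 4.67, 4.85 and 3.88 CPM in irradiated mice. It fell 6.56-fold (log2 -2.71 ± 0.19, adjusted p = 3.60e-05), and all irradiated mice were below all untreated mice. Bambi, a pseudoreceptor that dampens TGF-beta signals, had 9.98, 8.7 and 12.4 CPM in untreated and 4.25, 3.04 and 2.81 CPM in irradiated mice (log2 -1.66 ± 0.20, adjusted p = 4.43e-04). Its groups did not overlap.

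Smo, the transducer of hedgehog signals, was at 11.8, 13.3 and 16.1 CPM in untreated and 4.53, 6.05 and 3.29 CPM in irradiated mice, without overlap (log2 -1.50 ± 0.22, adjusted p = 0.00113), and at a log2 fold change of -0.85 without clusters 5, 6 and 7. Gprc5b, an orphan receptor, had 8.3, 8.81 and 10.5 CPM in untreated and 3.71, 2.94 and 2.52 CPM in irradiated mice (log2 -1.61 ± 0.18, adjusted p = 2.97e-04). Its call was lost without those clusters, where the value was -0.08 (adjusted p = 0.807). Of the Wnt receptors Fzd4 fell from 7.29 ± 0.11 to 3.15 ± 0.506 CPM, and Rnf43, a ligase that removes frizzled receptors from the surface, from 11.9 ± 0.203 to 5.91 ± 1.2 CPM.

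Of the receptors for EGF and FGF, Egfr rose from 11.6 ± 1.64 to 22.6 ± 1.86 CPM and Erbb2 fell from 12.3 ± 2.27 to 5.83 ± 0.96 CPM. Their calls were lost in 1 setting each, Egfr with mice by hashtag share (adjusted p = 0.114) and Erbb2 with thinned cells (0.251). Ephb3, an ephrin receptor, rose from 8.75 ± 1.42 to 24 ± 5.87 CPM. Plaur, the urokinase receptor, rose from 18.8 ± 1.09 to 73.8 ± 19.2 CPM, and Cd44, the hyaluronan receptor, from 1.86 ± 0.805 to 9.2 ± 3.7 CPM. With no limit on acinar genes, so with acinar cells included, Cd44 missed the threshold (0.31, adjusted p = 0.314). Over all alternatives the log2 fold change was 1.52 to 2.84 for Tlr2, 1.20 to 2.33 for Plaur, 1.24 to 2.08 for Ephb3 and 2.88 to 4.27 for Adgrf1.

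Of the co-receptors of the GDNF family, Gfra3 fell and Gfra4 rose. Gfra3 fell from 7.84 ± 1.22 to 0.383 ± 0.354 CPM (log2 -3.92 ± 0.41, -5.39 without irradiated mouse 2), and Gfra4 had 3 UMIs in the untreated and 217 in the irradiated mice, a pooled ratio of 41.4 (counting interval 13.98 to 202). Gfra3 is 1 of the 7 intercalated duct markers, of which 4 fell and 1 rose. Clusters 5 and 7, with intercalated duct markers raised, held 265 and 185 untreated against 7 and 2 irradiated cells. Whether Gfra3 changed within intercalated duct cells was not tested. In ionocyte-like cells Gfra4 was at 0.17 CPM in untreated and 18.6 CPM in irradiated mice. Kdr, the VEGF receptor of blood vessels, and Ramp2, a partner of the calcitonin receptor-like receptor, were at 2.24, 5.98 and 1.23 and 1.35, 6.85 and 3.82 CPM in untreated mice. In irradiated mice they were at 0, 0.0354 and 0.678 and 0.137, 0.0708 and 0.678 CPM. Of 7 endothelial markers, 5 were tested and 4 fell, and their summed level was 19.7 to 57.9 CPM in untreated and 1.27 to 7.26 CPM in irradiated mice; none was at 0 in all mice. Without clusters 14, 16 and 17 both genes were under the filter on low counts. The log2 fold change of Kdr was -4.02, -6.39 without irradiated mouse 3, -3.16 without untreated mouse 2, and no longer past the threshold without irradiated mouse 2 (-2.98, adjusted p = 0.0577). That of Ramp2 was -4.05, -2.84 with 4 starting clusters in the hashtag call (an alternative added after seeing the data), and -3.12, -5.39 and -3.39 without irradiated mouse 2, irradiated mouse 3 and untreated mouse 2.

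**Figure D1:**
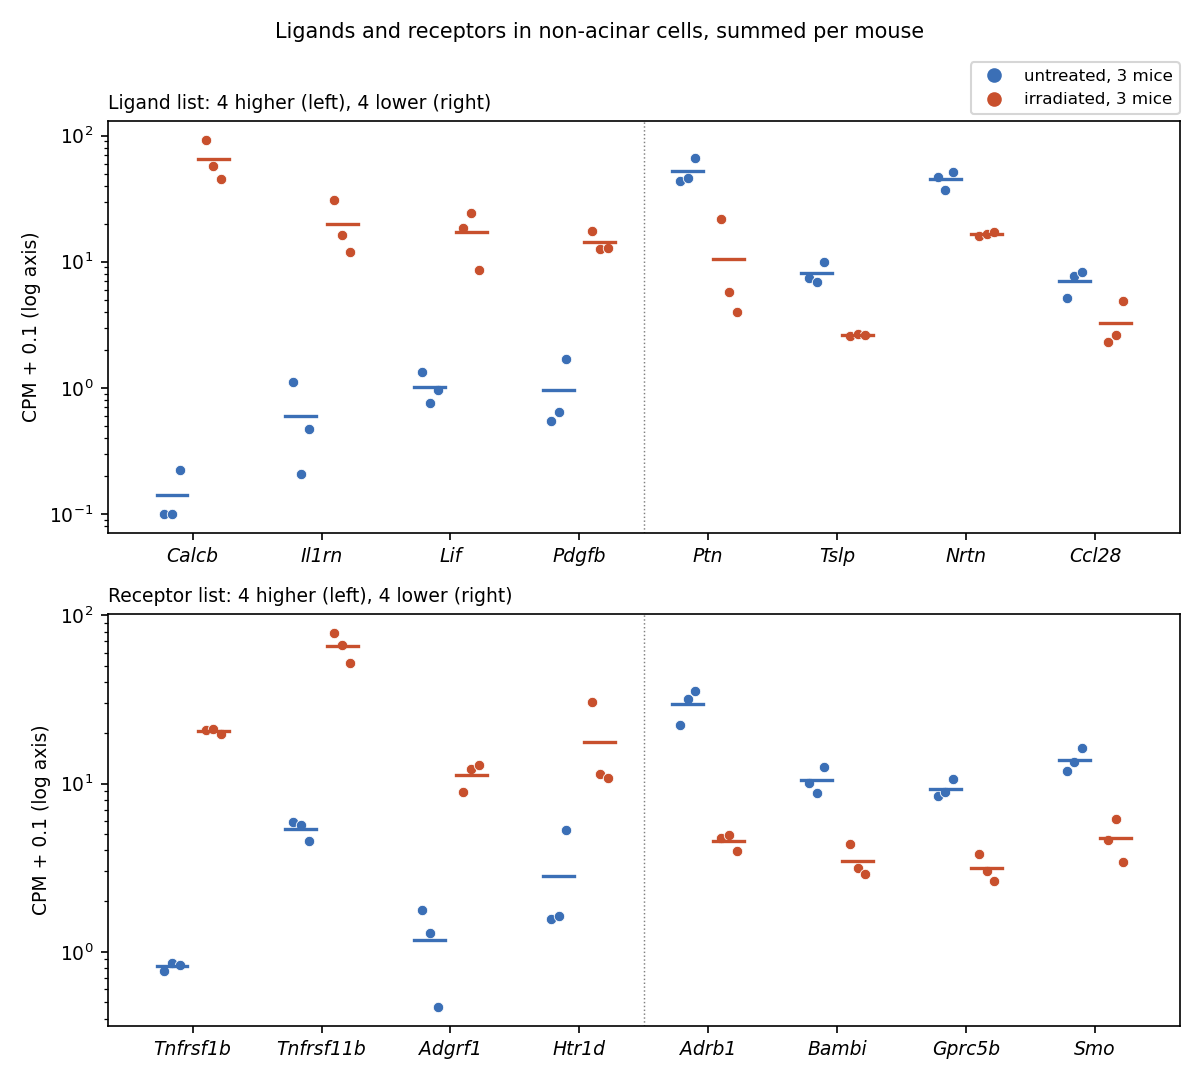
Levels of the 4 leading higher and 4 leading lower genes of the ligand list (top) and the receptor list (bottom), as CPM + 0.1 on a log axis. Points are mice (3 untreated in blue, 3 irradiated in orange) and bars are group means. The groups do not overlap for any of these genes, which was a condition of their choice. Tnfrsf1b lies at 0.673 to 0.761 CPM in untreated and 19.7 to 20.9 CPM in irradiated mice.

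Among transcription factors more members fell than rose in all non-acinar cells together, while the counts in the cell classes differed and are given with them. Of 450 listed genes 303 passed the filter, of which 69 rose and 98 fell, with a median log2 fold change of -0.0913. In the homeobox, POU and PAX group 17 of 29 tested members fell and 2 rose, and in the Kruppel-like, SP and EGR group 14 of 34 fell and 2 rose. The STAT, IRF and NF-kB group ran the other way, with 10 of 24 higher and 3 lower. In the AP-1, ATF, CREB and MAF group 13 of 42 rose and 13 fell.

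Irf7, a factor of the interferon response, was at 54, 67.7 and 76.4 CPM in untreated and 302, 328 and 458 CPM in irradiated mice. It rose 5.49-fold (log2 2.46 ± 0.18, adjusted p = 4.56e-05) with no overlap. Relb and Nfkb2, the partners of the alternative NF-kB pathway, rose from 33.6 ± 11.9 to 108 ± 10.3 CPM and from 25.3 ± 3.21 to 47.1 ± 2.14 CPM. Hmga1, a chromatin protein abundant in growing cells, was at 6.62, 5.87 and 4.31 CPM in untreated and 27.3, 26.6 and 22.9 CPM in irradiated mice (log2 2.18 ± 0.15, adjusted p = 3.60e-05). Creb5, a factor of the cyclic AMP response family, had 29.8, 24.5 and 35.1 CPM in untreated and 152, 115 and 138 CPM in irradiated mice (log2 2.18 ± 0.15, adjusted p = 2.86e-05). For both, every irradiated mouse was above every untreated mouse.

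Myc, which drives growth and ribosome production, was at 47.5, 39.4 and 36.1 CPM in untreated and 189, 149.7 and 132 CPM in irradiated mice. It rose 3.82-fold (log2 1.94 ± 0.15, adjusted p = 5.28e-05), and the groups did not overlap. Fosl1, an AP-1 subunit, rose from 35.3 ± 3.93 to 112 ± 22.5 CPM. Etv4 and Etv5, targets of FGF signalling in many tissues, rose from 0.421 ± 0.0792 to 3.85 ± 1.54 CPM and from 0.831 ± 0.19 to 3.64 ± 0.748 CPM, while Elf5, another ETS factor, fell from 85.6 ± 11.9 to 27.3 ± 9.67 CPM. Id1, a target of BMP signals, rose from 16.3 ± 2.23 to 50.3 ± 24.8 CPM.

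Klf2 is a Kruppel-like factor whose promoter is among those printed here. It was at 52.9, 87.6 and 109 CPM in untreated and 7.14, 5.56 and 5.72 CPM in irradiated mice, a 13.9-fold lower level (log2 -3.79 ± 0.27, adjusted p = 3.64e-05), and all irradiated mice were below all untreated ones. Klf15, a factor of amino acid and lipid metabolism under glucocorticoid control, was at 8.97, 12.1 and 11.7 CPM in untreated and 1.24, 1.27 and 0.872 CPM in irradiated mice (log2 -3.22 ± 0.21, adjusted p = 2.64e-05), also without overlap. Tsc22d3, the glucocorticoid-induced leucine zipper, fell from 22.1 ± 4.14 to 7.5 ± 0.838 CPM, and Per2, a circadian clock gene, from 4.64 ± 1.1 to 1.63 ± 0.253 CPM.

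Fos and Fosb are AP-1 subunits known as immediate early genes, which are induced within minutes of a stimulus. Fos was at 2551, 2762 and 3846 CPM in untreated and 816, 657 and 468 CPM in irradiated mice (log2 -2.24 ± 0.22, adjusted p = 1.37e-04), and Fosb at 657, 585 and 858 CPM in untreated and 180.2, 177 and 149 CPM in irradiated mice (log2 -2.05 ± 0.15, adjusted p = 4.16e-05). Neither gene had overlapping groups. Immediate early genes were no list here, and others went other ways: Myc and Fosl1 rose, as given, and Klf6 was at 977 ± 224 and 903 ± 85.4 CPM and missed the threshold (log2 -0.11, adjusted p = 0.583). Of the Kruppel-like, SP and EGR and nuclear receptor groups, Egr1 fell from 812 ± 177 to 272 ± 60.1 CPM, as did Egr3 (4.58 ± 0.77 and 1.91 ± 0.393 CPM), Nr4a1 (186 ± 16.2 and 75.1 ± 12.9 CPM) and Nr4a2 (20.1 ± 3.3 and 7.6 ± 1.82 CPM). Klf2 and Fos were among the leading genes of cluster 7 (185 untreated and 2 irradiated cells). Over all alternatives, the one without clusters 5, 6 and 7 included, the log2 fold change was -2.52 to -2.04 for Fos and -4.44 to -3.55 for Klf2. The tissue was dissociated with enzymes for 2 hours, per the labels, and whether handling differed between the libraries was not tested.

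Of the homeobox factors, Barx2 fell from 98.5 ± 10.6 to 26.5 ± 2.51 CPM and Meis1 from 46.4 ± 2.19 to 19.4 ± 2.0 CPM. Foxc1, a forkhead factor, fell from 66.9 ± 8.25 to 18.4 ± 4.5 CPM, and Tfap2b, an AP-2 factor, from 13.7 ± 1.76 to 4.36 ± 2.37 CPM. Ascl3, a marker of salivary ionocytes, fell from 187 ± 53.8 to 67 ± 27.8 CPM, while the 9 ionocyte markers went both ways (2 higher and 3 lower) and summed to 647 to 813 CPM in untreated and 666 to 1125 CPM in irradiated mice. The largest gain in that sum was Atp6v1g3, at 46.8, 36.3 and 28 CPM in untreated and 164, 336 and 441 CPM in irradiated mice. Atp6v1g3 was a leading gene of cluster 1 (521 irradiated and 0 untreated cells). The call of Ascl3 was lost under the stricter cell filter (-0.50, adjusted p = 0.221). Without clusters 5, 6 and 7 the log2 fold changes were -1.07 for Barx2, -1.11 for Foxc1 and -0.73 for Elf5, in place of -1.88, -1.88 and -1.61. That of Etv4 was 2.40 to 4.45 over the 20 of 21 alternatives that tested it.

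Metabolism genes moved in both directions, with Lcn2, Cda, Srxn1 and Hmox1 leading the higher and Fabp4, Gnmt, Dhrs3 and Gstm1 the lower. Of 576 listed genes 458 passed the filter, of which 87 (19.0%) rose and 105 (22.9%) fell, with a median log2 fold change of -0.0821. In fatty acid oxidation and ketones 12 of 26 tested members fell and 2 rose, in the tricarboxylic acid cycle 8 of 27 fell and 1 rose, and in the retinoid and aldehyde group 10 of 23 fell and 3 rose. Amino acid transport had 5 of 13 higher and 0 lower, and steroid, eicosanoid and lipid mediators 7 of 16 higher and 2 lower. Nuclear-encoded respiratory chain genes had 4 of 40 higher and 5 lower, below the background in both directions.

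Lcn2, lipocalin 2, which binds bacterial iron carriers, was at 4.93, 13.8 and 12 CPM in untreated and 169, 155 and 93.4 CPM in irradiated mice. It rose 13.6-fold (log2 3.77 ± 0.34, adjusted p = 9.57e-05), without overlap. Cda, cytidine deaminase of pyrimidine salvage, had 2.35, 2.5 and 2.1 CPM in untreated and 36.5, 20.4 and 21.7 CPM in irradiated mice (log2 3.46 ± 0.28, adjusted p = 6.13e-05), also without overlap. Lcn2 was among the leading genes of cluster 12 (7 untreated and 105 irradiated cells) and Cda among those of cluster 4.

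Srxn1, sulfiredoxin, which restores oxidised peroxiredoxins, was at 47.7, 35.1 and 38.8 CPM in untreated and 272, 169.7 and 149 CPM in irradiated mice (log2 2.28 ± 0.23, adjusted p = 1.48e-04). Hmox1, heme oxygenase 1, had 116, 121 and 93.7 CPM in untreated and 544, 451 and 314 CPM in irradiated mice (log2 1.99 ± 0.19, adjusted p = 1.41e-04). In both genes irradiated mouse 3 was the lowest of its group and above every untreated mouse. Gss, glutathione synthetase, rose from 16.9 ± 1.79 to 39.4 ± 3.79 CPM. Gstm1, a glutathione transferase, was at 557, 277 and 230.2 CPM in untreated and 113, 131 and 104 CPM in irradiated mice and fell (log2 -1.61 ± 0.29, adjusted p = 0.00333), and Txnip, an inhibitor of thioredoxin, fell from 124 ± 10.7 to 45.5 ± 6.07 CPM. In the whole group of glutathione, thioredoxin and detoxification genes 9 of 55 tested members rose and 17 fell.

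Fabp4, a fatty acid carrier of fat cells and capillary endothelium, was at 13.2, 37.4 and 13.2 CPM in untreated and 0.686, 0.177 and 0.0969 CPM in irradiated mice. The groups did not overlap (log2 -6.40 ± 0.68, adjusted p = 2.15e-04). Endothelial markers were lower in the same mice (19.7 to 57.9 against 1.27 to 7.26 CPM), and without clusters 14, 16 and 17 it was under the filter on low counts. The value was -7.02 without irradiated mouse 1 and -5.70 without untreated mouse 2, and with 4 starting clusters in the hashtag call, an alternative added after seeing the data, its call was lost (-2.70, adjusted p = 0.0553).

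Gnmt, glycine N-methyltransferase, was at 9.53, 12.1 and 12.2 CPM in untreated and 1.92, 2.65 and 3.88 CPM in irradiated mice (log2 -1.98 ± 0.22, adjusted p = 2.77e-04). Dhrs3, a retinaldehyde reductase, had 10.8, 15.5 and 13.1 CPM in untreated and 3.02, 3.82 and 3.39 CPM in irradiated mice (log2 -1.90 ± 0.18, adjusted p = 1.15e-04). Both fell without overlap. Of the aldehyde dehydrogenases, Aldh6a1 fell from 23.2 ± 0.749 to 7.69 ± 1.66 CPM and Aldh1b1 from 11.5 ± 1.98 to 4.44 ± 0.606 CPM, while Aldh2 was at 278 ± 34.3 and 256 ± 19.7 CPM and missed the threshold (log2 -0.12, adjusted p = 0.41).

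In glucose handling, Slc2a1, the glucose carrier GLUT1, rose from 170.5 ± 22.2 to 614 ± 42.3 CPM. Pdk4, which blocks the entry of pyruvate into the tricarboxylic acid cycle, rose from 104 ± 18.1 to 375 ± 69.1 CPM. Gapdh was at 1189 ± 94.6 and 1273 ± 59.8 CPM and missed the threshold (adjusted p = 0.372). Pgm2, a phosphoglucomutase, and Rpia, of the pentose phosphate pathway, rose from 22.5 ± 0.281 to 53.1 ± 2.34 CPM and from 36.6 ± 0.401 to 70.2 ± 3.92 CPM. In the tricarboxylic acid cycle Idh2 fell from 258 ± 11.4 to 125 ± 8.41 CPM and Idh3g from 171 ± 5.11 to 119.9 ± 4.68 CPM. In fatty acid oxidation and ketone use, Acat1 and Acaa2 fell from 104 ± 3.13 to 53.6 ± 1.17 CPM and from 98.5 ± 3.51 to 57 ± 5.49 CPM. Of the respiratory chain genes, Ndufa1 and Cox7c rose from 415 ± 9.19 to 662 ± 82.1 CPM and from 1396 ± 57 to 2029.6 ± 111 CPM, and Atp5b fell from 1399 ± 75.2 to 1079 ± 43.3 CPM. Calls were lost with mice by hashtag share for Idh3g (adjusted p = 0.0796) and Atp5b (0.212), and under the stricter cell filter for Atp5b (0.627).

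In lipid metabolism Lpin2, a phosphatidate phosphatase, rose from 16 ± 2.14 to 62.3 ± 7.86 CPM, and Scd1, a fatty acid desaturase, from 5.94 ± 1.67 to 18.5 ± 3.24 CPM, while Acss1, a mitochondrial acetate enzyme, fell from 63.9 ± 5.88 to 27.8 ± 3.27 CPM. Of the cholesterol synthesis genes 8 of 27 rose and 3 fell, among them Msmo1, Sc5d and Fdft1, which rose from 24.9 ± 1.71 to 54.4 ± 4.8 CPM, from 50.7 ± 2.31 to 110.4 ± 4.32 CPM and from 21 ± 4.05 to 40.05 ± 2.32 CPM. The sphingomyelin synthase Sgms2 rose from 39.5 ± 6.91 to 147 ± 18.8 CPM. The sphingosine kinases differed in direction, with Sphk1 rising from 19.5 ± 3.56 to 44.7 ± 5.51 CPM and Sphk2 falling from 19.8 ± 2.18 to 9.47 ± 0.749 CPM. Hpgds, which makes prostaglandin D, rose from 0.344 ± 0.0228 to 6.62 ± 1.37 CPM, Alox12e, a lipoxygenase, from 0.49 ± 0.146 to 3.14 ± 0.752 CPM, and Hsd11b1, which regenerates active glucocorticoid, from 66.7 ± 26.4 to 218 ± 69.9 CPM.

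The creatine carrier Slc6a8 and the amino acid carrier Slc7a5 rose from 41.8 ± 4.48 to 102 ± 8.03 CPM and from 7.55 ± 1.89 to 15.6 ± 0.621 CPM. Mthfd2, of mitochondrial one-carbon metabolism, rose from 14.4 ± 3.08 to 32.3 ± 4.46 CPM. In nucleotide synthesis Prps2, which makes the ribose phosphate donor, rose from 7.36 ± 0.653 to 16.5 ± 1.56 CPM and Adss, of adenine nucleotide synthesis, from 56.8 ± 0.955 to 119.9 ± 11.5 CPM. In these 5 genes the groups did not overlap. Over all alternatives the log2 fold change was 3.02 to 4.16 for Lcn2, -2.64 to -1.49 for Dhrs3 and 0.56 to 1.79 for Scd1, the last lowest with acinar cells included. For Hpgds it was 3.29 to 4.83 over the 20 of 21 alternatives that tested it.

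**Figure D2:**
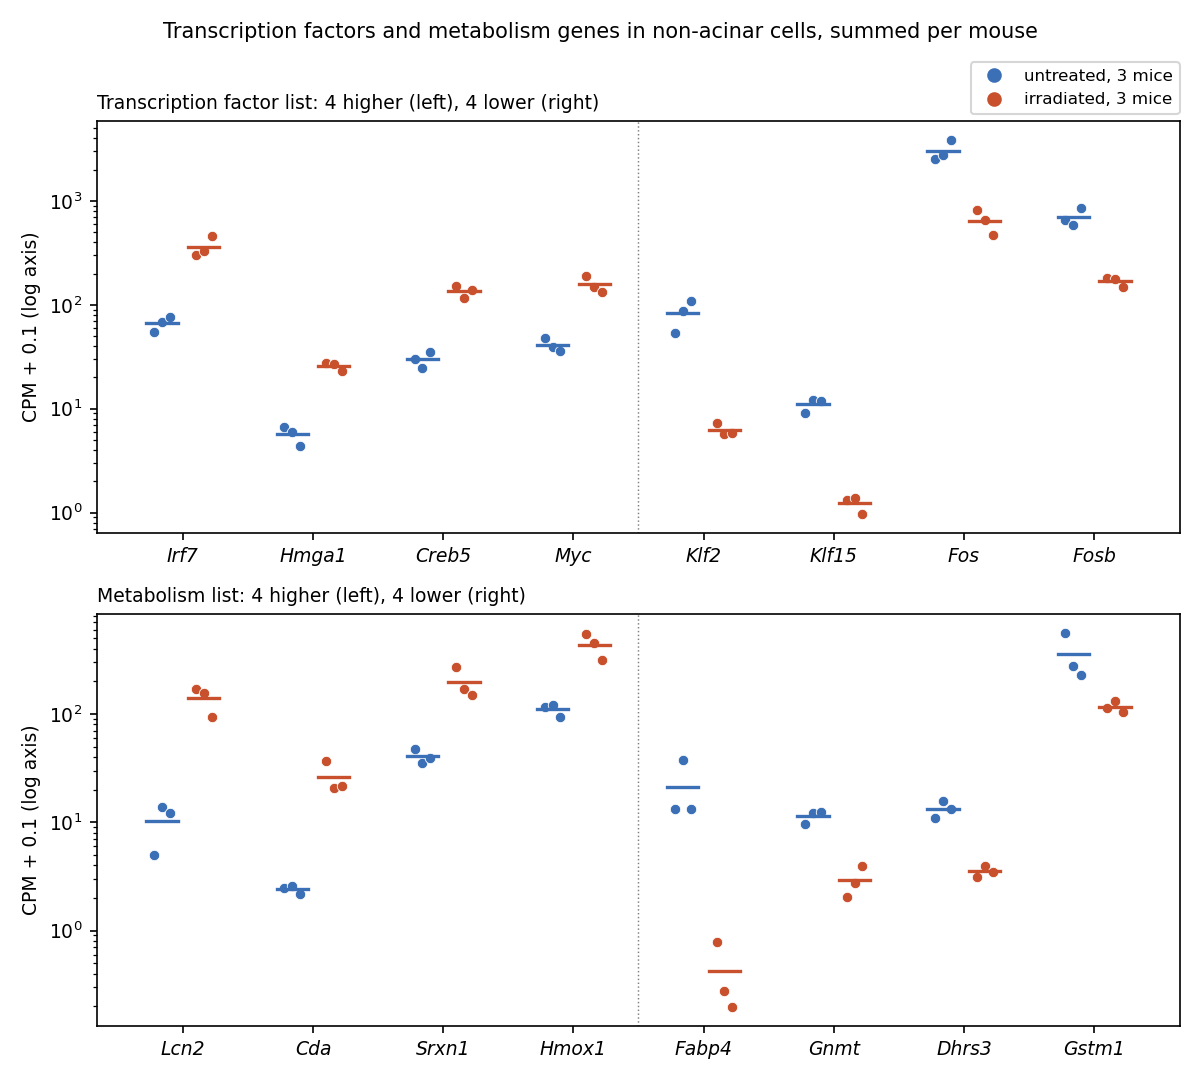
Levels of the 4 leading higher and 4 leading lower genes of the transcription factor list (top) and the metabolism list (bottom), as CPM + 0.1 on a log axis. Points are mice (3 untreated in blue, 3 irradiated in orange) and bars are group means; no gene has overlapping groups, and Fabp4 and Gstm1 each have 1 untreated mouse well above the other two.

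**Figure D3:**
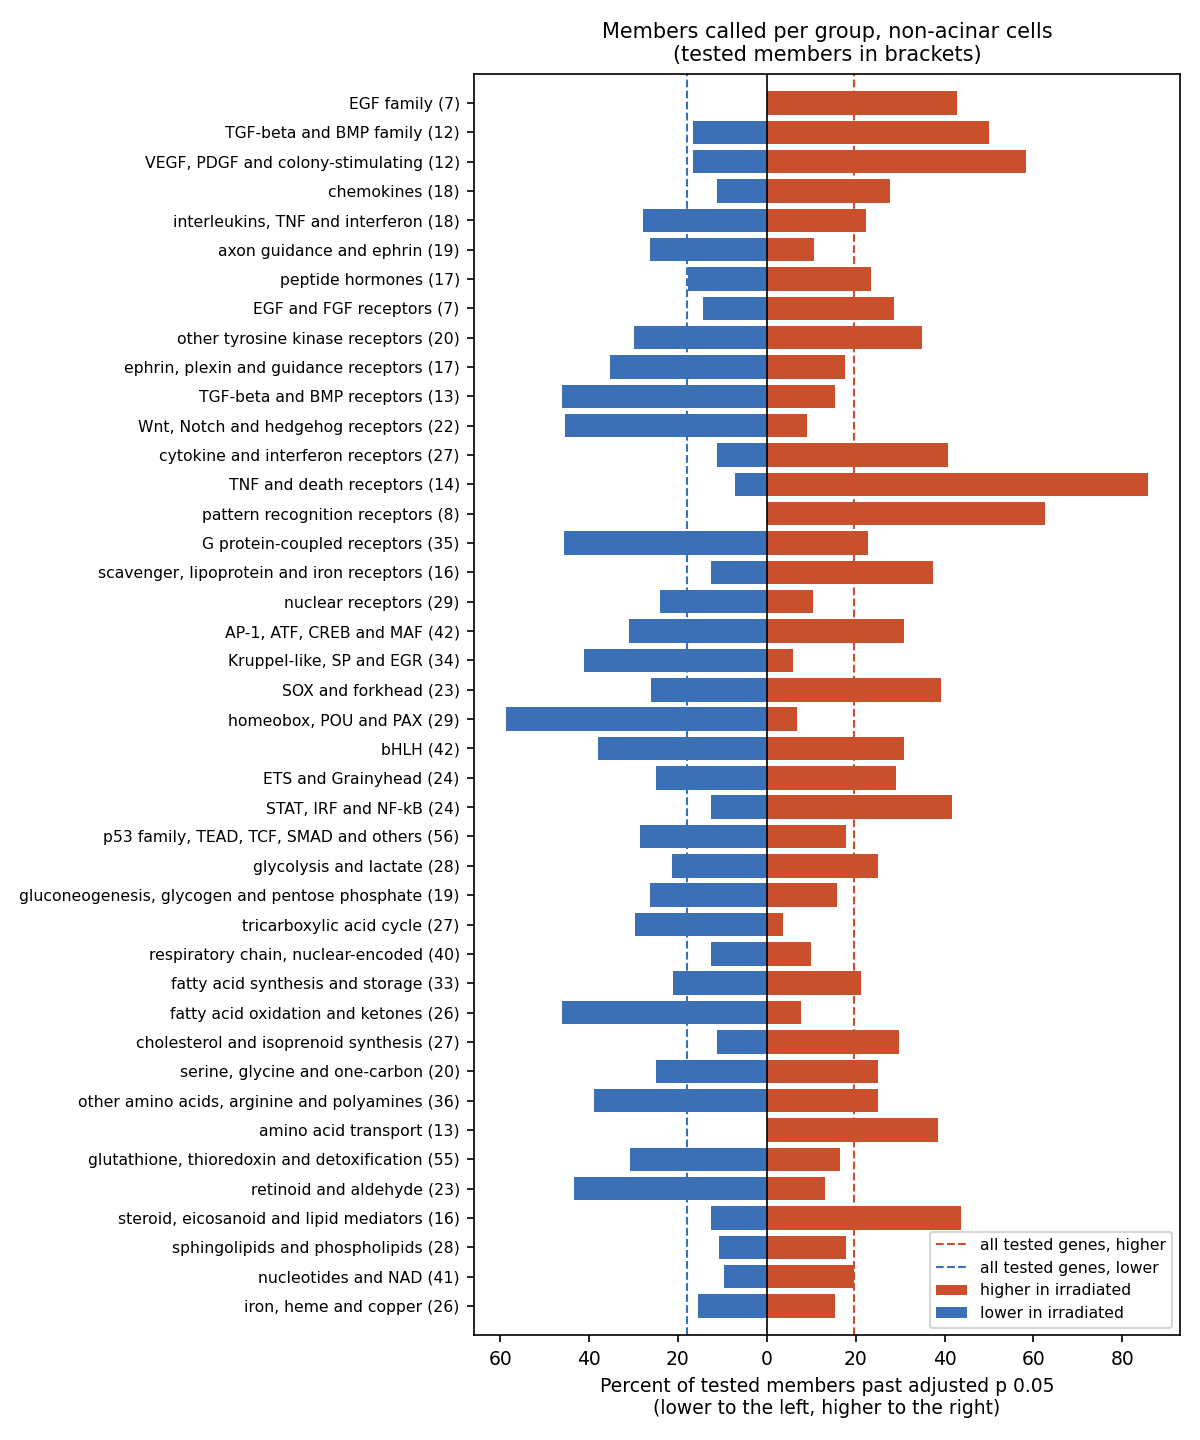
Percent of tested members past the adjusted p of 0.05 in each gene group with at least 7 tested members, higher in irradiated cells to the right and lower to the left; the number tested stands in brackets. Dashed lines are the shares over all tested genes, 19.7% and 17.9%; TNF and death receptors reach furthest to the right and homeobox, POU and PAX factors furthest to the left.

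Over all genes, in the role lists or not, the leading higher genes were Reg3g, Csn3, Calcb and Sult1c1. Reg3g, an antibacterial lectin of epithelia, had 0 UMIs in the untreated mice and 44.6, 65.3 and 36.9 CPM in the irradiated mice, at least 429-fold higher against a floor of 3 counts over the untreated group. Csn3, kappa casein, had 1 UMI in the untreated mice and 179, 3.89 and 23.3 CPM in the irradiated mice, a pooled ratio of 947 (counting interval 170 to 37425). Irradiated mouse 1 held 1304 of the 1655 irradiated UMIs, and without it the fitted log2 fold change, which depends on the prior count at so few untreated UMIs, was 8.07 in place of 10.40. Csn3 led cluster 16 (4 untreated and 21 irradiated cells, with the contractile gene Acta2), and without untreated mouse 3 its call was lost (adjusted p = 0.0596). Sult1c1, a sulfotransferase, was at 3.92, 1.52 and 3.57 CPM in untreated and 116, 186 and 264 CPM in irradiated mice (log2 5.98 ± 0.39, adjusted p = 2.51e-05), without overlap.

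The leading lower genes over all lists were Fabp4, Plvap, Esp18 and Esp4. Plvap, of the diaphragms of fenestrated endothelium, was at 4.37, 21.9 and 6.29 CPM in untreated and 0, 0.0708 and 0.581 CPM in irradiated mice (log2 -5.85 ± 0.94, adjusted p = 0.00172). It moved with the endothelial markers, fell under the filter on low counts without clusters 14, 16 and 17, and had values of -2.81 with 4 starting clusters in the hashtag call, and -4.95, -7.37 and -4.79 without irradiated mouse 2, irradiated mouse 3 and untreated mouse 2. Esp18 and Esp4, secreted peptides of the exocrine gland-secreting family, were at 53.5, 219 and 213 and 165, 189 and 331 CPM in untreated mice. In irradiated mice they were at 1.51, 9.1 and 2.42 and 8.65, 11.3 and 7.56 CPM, without overlap (log2 -4.92 ± 0.67 and -4.60 ± 0.29). They were the leading genes of clusters 7 and 5, and without clusters 5, 6 and 7 the value of Esp18 was -2.77 while Esp4 missed the threshold (-0.25, adjusted p = 0.555). Without irradiated mouse 2 Esp18 was at -6.30.

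The same comparison was made within the 2 classes of cell large enough in every mouse, named from their markers. Granular duct-like cells (clusters 0, 3 and 10) numbered 70 to 398 in irradiated and 117 to 170 in untreated mice, and ionocyte-like cells (clusters 1, 2 and 8, the last with a median of 3264 UMIs per cell) 86 to 418 and 136 to 199. Different clusters held each class in the 2 groups: cluster 0 held 553 irradiated and 1 untreated granular duct-like cells and cluster 3 held 0 and 383, while cluster 1 held 521 and 0 ionocyte-like cells and cluster 2 held 6 and 505. Genes among the 10 leading genes of these clusters are given no class result, and the further genes named here were chosen after their values were seen. In granular duct-like cells 1779 of 8694 tested genes (20.5%) were higher and 1743 (20%) lower (40.5% in either direction), and in ionocyte-like cells 1067 of 9013 (11.8%) were higher and 749 (8.31%) lower (20.1% in either direction).

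The role lists did not run alike in the classes. Of the transcription factors 46 of 241 tested rose and 87 fell in granular duct-like cells, against 60 of 256 higher and 29 lower in ionocyte-like cells. In the Kruppel-like group the counts were 4 higher and 14 lower of 28, against 5 and 5 of 27, and in the homeobox group 2 and 14 of 24, against 2 and 7 of 24. Of the receptors 37 of 110 rose and 26 fell in granular duct-like cells, against 36 of 126 higher and 5 lower in ionocyte-like cells. The excess of lower members seen in all non-acinar cells was not found in ionocyte-like cells for Wnt, Notch and hedgehog receptors (2 higher and 0 lower of 17), TGF-beta and BMP receptors (2 and 1 of 11) or G protein-coupled receptors (4 and 2 of 23). In granular duct-like cells these were 2 and 5 of 12, 1 and 3 of 9, and 3 and 6 of 19. Ligands had 16 higher and 20 lower of 58 in granular duct-like and 27 and 6 of 62 in ionocyte-like cells, and metabolism genes 81 and 89 of 390 and 37 and 75 of 385. The differences between the classes in these counts were not tested.

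The TNF and death receptor group had 8 of 10 tested members higher and 1 lower in granular duct-like cells and 6 of 9 higher and 0 lower in ionocyte-like cells. Tnfrsf1b rose from 0.507 ± 0.248 to 16.8 ± 1.05 CPM in granular duct-like and from 1.8 ± 0.832 to 15.7 ± 2.95 CPM in ionocyte-like cells. Fas rose from 7.34 ± 1.81 to 64.6 ± 4.01 CPM and from 10.3 ± 1.55 to 32.8 ± 7.12 CPM. Eda2r rose from 1.15 ± 0.971 to 14.5 ± 2.28 CPM and from 12.3 ± 2.9 to 35.7 ± 2.09 CPM, with a granular log2 fold change of 3.54, and 4.53 without untreated mouse 2. Osmr rose from 0.997 ± 0.226 to 13.2 ± 3.02 CPM and from 5.71 ± 3.84 to 26.5 ± 3.33 CPM, and Egfr from 4.58 ± 1.32 to 9.89 ± 1.26 CPM and from 8.19 ± 0.967 to 24.9 ± 5.88 CPM. Csf1 rose from 9.77 ± 0.254 to 20.2 ± 3.5 CPM and from 44.6 ± 7.91 to 107 ± 22.5 CPM. The granular log2 fold change of Osmr was 3.71, and 7.91 with each library clustered alone, and that of Fas was 3.16, and 4.35 with thinned cells.

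Adrb1 fell from 39.3 ± 7.0 to 1.98 ± 0.722 CPM in granular duct-like and from 20.5 ± 2.8 to 7.19 ± 1.1 CPM in ionocyte-like cells. Bambi fell from 6.18 ± 1.92 to 0.752 ± 0.25 CPM and from 15.6 ± 9.62 to 6.52 ± 1.15 CPM. The ionocyte call for Bambi was lost without any 1 of irradiated mice 1, 2 and 3 or untreated mice 2 and 3 (adjusted p = 0.0661, 0.0734, 0.108, 0.0624 and 0.297; log2 fold change -0.57 without the last, in place of -1.12). Nrtn fell from 16.3 ± 1.65 to 10.7 ± 0.99 CPM and from 40.4 ± 10.2 to 23.8 ± 2.2 CPM. Its calls were lost without untreated mouse 1 in both classes (adjusted p = 0.0548 and 0.0673) and without irradiated mouse 2 in granular duct-like cells (0.0961), and with DESeq2 in both (0.17 and 0.0555).

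Klf2 was at 56.5, 91 and 105 CPM in untreated and 0, 0.266 and 0.525 CPM in irradiated granular duct-like cells, and at 22.7, 28.6 and 45.6 and 18.4, 8.74 and 8.07 CPM in ionocyte-like cells. Both classes fell without overlap (log2 -7.94 ± 0.37 and -1.68 ± 0.29). The irradiated granular value rests on 0, 3 and 3 UMIs, and its log2 fold change was -6.05 with thinned cells and -8.63 with each library clustered alone. Klf15 fell from 12.6 ± 2.11 to 0.839 ± 0.202 CPM and from 10.04 ± 3.84 to 1.91 ± 0.667 CPM, and Barx2 from 16.5 ± 5.05 to 2.99 ± 1.84 CPM and from 109 ± 6.1 to 71.6 ± 5.21 CPM. Irf7 rose from 35.9 ± 15.9 to 274 ± 40.2 CPM and from 112 ± 17.3 to 520.1 ± 161 CPM, Relb from 8.5 ± 1.56 to 77.7 ± 9.4 CPM and from 54.8 ± 19.1 to 133 ± 14.7 CPM, Hmga1 from 2.14 ± 1.47 to 13.1 ± 1.58 CPM and from 8.88 ± 1.92 to 33.3 ± 7.95 CPM, and Myc from 29.98 ± 5.15 to 178 ± 20.9 CPM and from 23.2 ± 6.59 to 47.9 ± 7.97 CPM. Creb5 rose from 35.6 ± 11.8 to 144 ± 13 CPM and from 8.36 ± 4.83 to 41.5 ± 15.1 CPM. Without cluster 8 the ionocyte log2 fold change was 1.20 for Creb5 in place of 2.12 and -2.39 for Klf2, and the granular value of Relb was 1.70 to 3.80 over all alternatives.

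In metabolism Srxn1 rose from 11.4 ± 4.49 to 148 ± 66 CPM in granular duct-like and from 42.2 ± 15.8 to 159 ± 12.6 CPM in ionocyte-like cells. Hmox1 rose from 63.5 ± 14.7 to 363 ± 87 CPM and from 213 ± 59.7 to 344 ± 108 CPM, and in ionocyte-like cells its groups overlapped and the call was lost without irradiated mouse 2 (0.40, adjusted p = 0.152), untreated mouse 1 (0.0685) or untreated mouse 3 (0.0822). Slc2a1 rose from 111 ± 3.93 to 537 ± 43 CPM and from 269.8 ± 73.1 to 741 ± 170.2 CPM, Lpin2 from 9.97 ± 1.01 to 56.8 ± 7.3 CPM and from 25.5 ± 4.72 to 64.9 ± 8.03 CPM, and Pdk4 from 139 ± 26.4 to 405 ± 56.9 CPM and from 26.9 ± 6.58 to 81.6 ± 15.5 CPM. The ionocyte call for Pdk4 was lost without cluster 8, an alternative added after seeing the data (0.40, adjusted p = 0.124), and with each library clustered alone (0.0667). Idh2 fell from 169.6 ± 11.4 to 81.9 ± 7.54 CPM and from 401 ± 19.7 to 226 ± 10.1 CPM, and Acat1 from 106 ± 12 to 54.1 ± 2.15 CPM and from 85.8 ± 1.31 to 47.3 ± 3.24 CPM. Gstm1 fell from 171 ± 135 to 42.2 ± 3.71 CPM and from 461 ± 128 to 204 ± 13.5 CPM, with a granular value of -1.15 without untreated mouse 1 and -1.39 with each library clustered alone, in place of -2.02. With thinned cells the ionocyte calls of Myc, Barx2 and Acat1 were lost (adjusted p = 0.23, 0.155 and 0.107), and with DESeq2 those of Bambi (0.102) and Hmox1 (0.307). Of the nuclear-encoded respiratory chain genes 18 of 40 fell and 0 rose in ionocyte-like cells, against 5 lower and 6 higher of 40 in granular duct-like cells. This difference between the classes was not tested. Some described genes passed the threshold in granular duct-like cells and missed it in ionocyte-like cells. The log2 fold changes, granular first, were -2.04 and -0.13 for Tsc22d3 (ionocyte adjusted p = 0.806) and 2.57 and 0.65 for Ly96 (0.117). They were 1.55 and 0.45 for Gss (0.0684) and -1.61 and -0.38 for Rnf43 (0.241). For Ndufa1 they were 0.73 and 0.19 (0.197), and for Cox7c 0.60 and 0.23 (0.122). Missing it in 1 class is no test of the difference.

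Some genes were tested in 1 class only. In granular duct-like cells Il1rn had 1 UMI in untreated and 156 in irradiated mice (pooled ratio 66.6, counting interval 11.8 to 2646), Kitl rose from 8.24 ± 3.85 to 39.6 ± 8.4 CPM, Tnfrsf11b from 4.01 ± 2.39 to 42.1 ± 4.97 CPM and Lcn2 from 10.3 ± 5.73 to 71.4 ± 25.7 CPM. The log2 fold change of Lcn2 there was 2.80, and 1.94 with each library clustered alone and 3.87 with thinned cells. In ionocyte-like cells Calcb had 0 UMIs in untreated and 121 in irradiated mice, at least 31.5-fold higher against a floor of 3 counts over the untreated group. There Cxcl2 rose from 1.15 ± 1.02 to 55 ± 9.57 CPM, with a log2 fold change of 5.67, and 5.01 without untreated mouse 1, and Adgrf1 rose from 3.82 ± 1.77 to 38.4 ± 2.36 CPM. Gprc5b and Smo, leading lower receptors of all non-acinar cells, missed the threshold in ionocyte-like cells, the only class that tested them. Gprc5b was at 5.12 CPM in untreated and 5.52 CPM in irradiated mice (log2 -0.03, adjusted p = 0.971). Smo was at 12.9 and 10 CPM (log2 -0.31, adjusted p = 0.442).

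**Figure D4:**
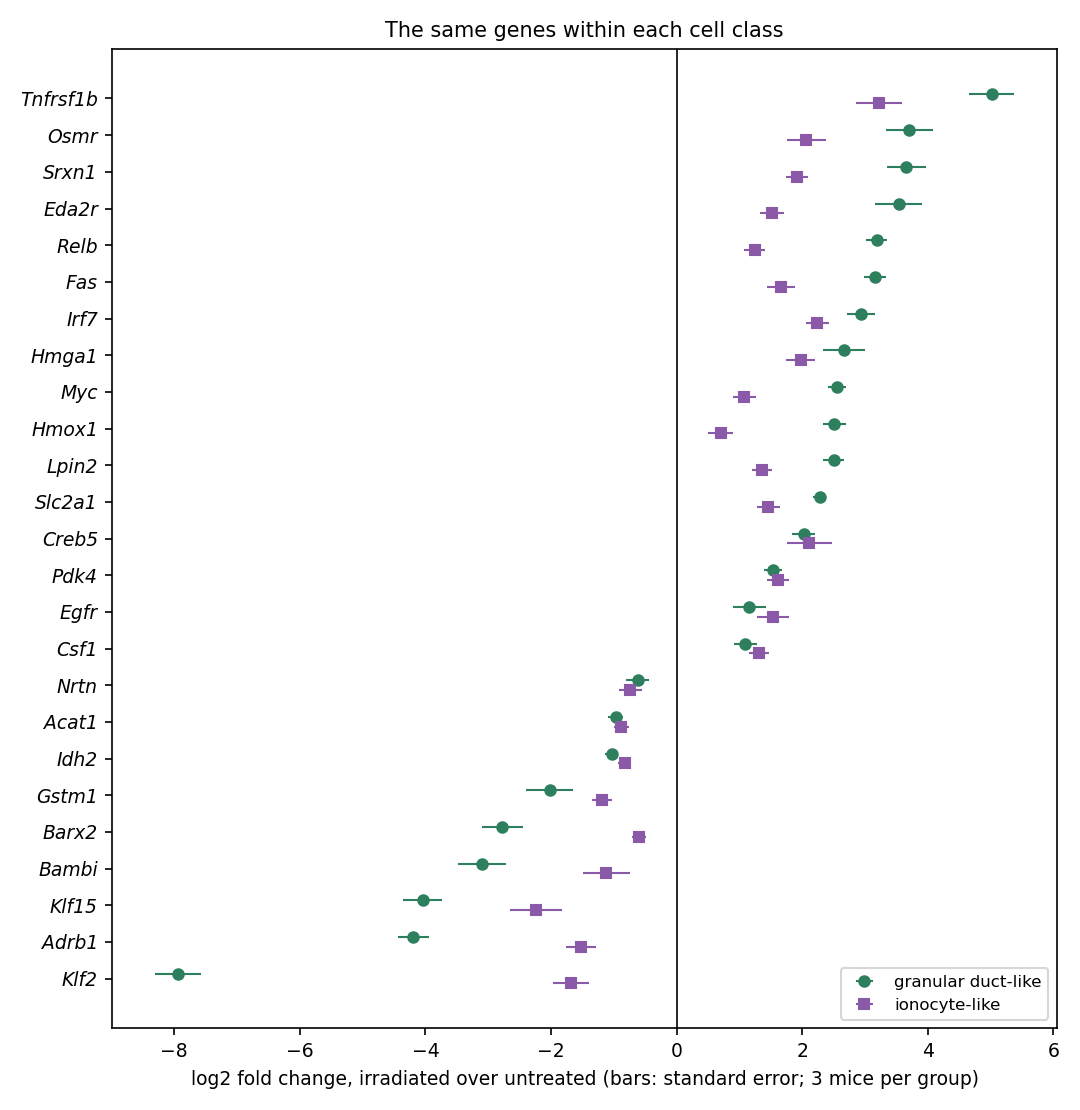
Log2 fold change of irradiated over untreated cells for genes tested in both granular duct-like (circles) and ionocyte-like (squares) cells, with standard errors (3 mice per group). The genes were chosen in part for having the same sign in both classes, and of those shown Klf2 differs most between them, at -7.94 and -1.68.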

How the data were processed

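UMI counts per barcode and gene, and per hashtag, were used as deposited by the authors. The submitters' processing notes name Cell Ranger 6.1.2 and mm10; ambient RNA was not removed. Hashtags were called with HTODemux (Seurat 5.3.0, quantile 0.99, 5 starting clusters), and barcodes called as hashtag doublets (150 untreated, 181 irradiated) were left out. Counts were summed per mouse and tested with edgeR 4.0.16 (R 4.3.3, filterByExpr, TMM, quasi-likelihood, irradiated against untreated, no covariate) with Benjamini-Hochberg adjustment over all tested genes; SE is the log2 fold change over the square root of F. Clusters came from both libraries together in scanpy 1.11.5 (10000 counts per cell, 2000 variable genes, 30 components, 15 neighbours, Leiden resolution 1). On simulated counts of the non-acinar comparison (11385 genes fitted), 78% of genes changed by 1 log2 unit and 95% of those changed by 2 were recovered, and 8 unchanged genes were called. The simulation gave genes of like level the same spread between mice and changed no gene of very low counts. It does not cover genes that vary more between mice, such as Areg and Csn3. Promoters came from RefSeq (GRCm38.p6), which held 92 of 129 genes sought. P-values measure only the spread between mice within 1 library per group. Intervals and floors (95%, 3 counts) cover counting error only.

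The members and gene lists were chosen with earlier results of these data known. The rule for named genes took, per role, 4 genes per direction past 0.05 with no overlap, a mean of at least 5 CPM, the same sign in both classes where tested and no acinar marker; per group up to 3 further called genes and up to 2 with the highest CPM that were not called; and 4 per direction over all genes, without Gm, Rik, mt-, Rpl and Rps names. It named 260 genes, 172 of them called. The text describes 129 (126 called) and gives Aldh2, Klf6 and Tlr4 beside them, and some of the others were left out with their stability known. Stability is thus given over all 172, where a setting tested them. Alternatives were other acinar limits, cell filters, hashtag assignment, Scrublet, thinning, clustering, DESeq2 1.42.0, RLE factors, no count filter, the replicate block and each mouse left out. Settings with 4 starting clusters or without named clusters were added after seeing the data.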

Additional observations from a re-analysis of the deposited data

Results flagged for a closer look

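The change with irradiation differed between granular duct-like and ionocyte-like cells for 8 of the 14 genes tested for it, by an interaction term in 1 model over both classes with each mouse as a fixed block (edgeR's quasi-likelihood test, Benjamini-Hochberg adjustment over 9827 genes, of which 17.6% passed, and 3 mice per group). These 14 were named for large changes in all non-acinar cells with the same sign in both classes. Their shared direction was thus set by the choice, and 8 of 14 is not comparable with the 17.6% over all genes. In ionocyte-like cells the calls of Bambi and Hmox1 were lost when some single mice were left out, as given. The difference, granular minus ionocyte log2 fold change, was -2.61 for Adrb1 (adjusted p = 1.30e-05), -1.95 for Bambi (adjusted p = 0.0114) and -1.75 for Klf15 (adjusted p = 0.0422), each lower in both classes and more so in granular duct-like cells. For Klf2 it was -6.16 (adjusted p = 2.15e-11), with 0, 3 and 3 UMIs in the irradiated granular duct-like cells. Cluster 3, which held 383 of the untreated granular duct-like cells, had Fos and Fosb among its leading genes. Cluster 11 (4 untreated and 112 irradiated cells), with 4 of 14 granular duct markers raised, stayed outside the class. How far the choice of cells for the class set the value of Klf2 was not tested. The difference was 0.80 for Irf7 (adjusted p = 0.00616), 1.47 for Myc (adjusted p = 2.42e-05), 1.66 for Srxn1 (adjusted p = 3.84e-04) and 1.84 for Hmox1 (adjusted p = 1.30e-06), each higher in both classes and more so in granular duct-like cells. Nrtn, Tnfrsf1b, Hmga1, Creb5, Gstm1 and Esp18 did not pass this test, with Tnfrsf1b at a difference of 1.90 (adjusted p = 0.0907).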

How the results depend on the processing

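For the non-acinar cells 2282 genes rose and 2075 fell. The counts were 894 and 740 with cells thinned to 2000 UMIs, and 1251 fell with mice by hashtag share. Leaving out 1 mouse gave 1739 to 2165 higher and 1294 to 1897 lower, both lowest without irradiated mouse 2. In granular duct-like cells the counts were 1171 and 1105 with each library clustered alone, 414 and 348 with thinned cells, and 972 lower with DESeq2. In ionocyte-like cells they were 658 and 324 with DESeq2 and 351 and 172 with thinned cells, and leaving out 1 mouse gave 426 to 710 lower (426 without irradiated mouse 3, 485 without untreated mouse 2). Thinning left 7781, 2683 and 4199 genes to test. DESeq2 moved the share of higher among called genes to 61.0% from 50.5% in granular duct-like cells.

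Directions turned for Tslp (0.35) without clusters 5, 6 and 7, for Fgf10 (0.15) under the stricter cell filter, and for 3 genes that never passed: Tnfrsf11a (-0.0545) and Gapdh (-0.0434) without clusters 5, 6 and 7, and Egf (-0.0409 with 4 starting clusters, -0.22 without clusters 5, 6 and 7, -0.34 under the stricter filter, -0.19 thinned, and -0.19 to 0.65 with 1 mouse left out, below 0 without irradiated mouse 3 or untreated mouse 1). The cause was not tested. Of the 172 called genes named by the rule, 22 lost the call when 1 mouse was left out, 4 of them described here; the others were Acvr1, Ehhadh, Epha4, Fah, Fgfr1, Fzd2, Gal, Gsta3, Il1r1, Mdk, Me2, Nmnat1, Pgf, Psat1, Sema6d, Slc1a4, Sox5 and Spp1. Without clusters 5, 6 and 7, 15 of the 165 still tested lost the call or turned, 3 of them described here. The others included Acvrl1, Creb3l4, Epha4, Epha5, Fgfr1, Gsta3, Il1r1, Me2, Pcx, Phgdh and Pros1. With mice by hashtag share 25 of the 168 still tested lost it, and under the stricter filter 15 of 164 lost it and 1 turned. With the acinar limit at 2% 1 of 166 was lost and at 10% 0 of 172. Thinning to 2000 UMIs left 111 tested, of which 6 lost the call. Genes under the filter on low counts in a setting are not counted as lost.

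With the replicate number as a block 1916 rose and 1588 fell in non-acinar, 1708 and 1626 in granular duct-like and 999 and 656 in ionocyte-like cells. Deviations of same-numbered mice correlated at -0.173, -0.208 and -0.217 in non-acinar cells, so the numbers do not pair the mice. Depth limits genes of a few UMIs, such as Nrg1 and Gfra4.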
